A study of Mus musculus with 20 samples.

Results

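The genes described here are the mouse cytochrome P450 genes whose symbol holds Cyp, a family number, a subfamily letter and a member number, as in Cyp27a1. There are 94 such genes among the 51810 genes of the count table. Cyp51, Cyp3a41a, Cyp3a41b, Cyp4a12a, Cyp4a12b and Cyp4a30b carry symbols of another form and are not included. The RNA came from medullary thymic epithelial cells (mTECs) of mice aged 4 to 5 weeks, after removal of thymocytes, enzyme digestion, magnetic enrichment on the epithelial surface protein EpCAM and sorting of 75000 cells per sample. The 4 groups are mTEClo and mTEChi cells, each from mice with genotype Trp53-WT (WT) and Trp53-cHyper (cHyper), with 3 libraries per group. Trp53 encodes the tumour suppressor p53. What allele the name cHyper stands for, what drives it and which gates separate mTEClo from mTEChi was not given in the sources used here, and nothing states that the 3 libraries of a group came from separate animals. The p-values below therefore measure only the spread between these libraries, part of which may be technical.

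Cytochrome P450 enzymes are haem proteins that insert an oxygen atom into small, mostly fat-soluble molecules. Families 1 to 3 mainly oxidise drugs, pollutants and other foreign compounds, and most of them are known from liver, gut, lung or nasal epithelium. Family 4 oxidises fatty acids, and other members make or break down bile acids, steroid hormones, retinoic acid and vitamin D. Medullary thymic epithelial cells are known for transcribing, cell by cell, genes that are otherwise limited to single tissues, partly through the regulator Aire, so that developing T cells meet those proteins in the thymus. Several human P450 enzymes of liver and adrenal gland are known targets of autoantibodies.

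The epithelial marker check used 8 genes (Epcam, Cd74, H2-Aa, Aire, Fezf2, Krt5, Krt14 and Ccl21a), and each was present in every group. Their summed level was 23131.7 to 27255.1 CPM (counts scaled to the size of the library) in WT mTEClo, 23862.3 to 25783.6 in cHyper mTEClo, 21843.0 to 28269.6 in WT mTEChi and 22701.9 to 25263.3 in cHyper mTEChi. Aire averaged 14.3 CPM in WT mTEClo and 1919.9 CPM in WT mTEChi. Replicate 3 of every group stood apart: it held 22023800 to 25306137 counts against 42075886 to 47926607 in replicates 1 and 2. It also held at least 24640 counts of the X-inactivation RNA Xist and 0 of the Y-linked gene Ddx3y, whereas replicates 1 and 2 had at most 361 and at least 2745. Depth, sex of the cells and the number of deposited samples per library thus changed together, equally in all 4 groups, and at least 2 animals contributed to each group. Trp53 itself was at 136 to 138 CPM in WT mTEClo and 154 to 177 CPM in cHyper mTEClo, and at 98 to 107 CPM in WT mTEChi and 129 to 138 CPM in cHyper mTEChi (log2 0.27, adjusted p = 0.0553, and 0.41, adjusted p = 0.02), which does not test the allele. The p53 target Cdkn1a was lower in cHyper, from 56.8 to 30.8 CPM in mTEClo (log2 −0.89, adjusted p = 0.000328) and from 165 to 99.5 CPM in mTEChi (log2 −0.73, adjusted p = 0.00418). Mdm2, another p53 target, did not pass in either (log2 0.09, adjusted p = 0.576, and −0.25, adjusted p = 0.192).

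Because many P450 genes are young duplicates, their sequences decide how well counts can be assigned to one gene. In the GENCODE M21 annotation, whose coordinates equal those of the table for all 94 genes, 33 members have a relative of the same subfamily with at least 90% identical coding sequence and 17 have one with at least 95%. The closest pair is Cyp2a4 and Cyp2a5 on chromosome 7, whose coding sequences of 1482 bases differ at 23 positions and share an identical run of 216 bases. The stretch from coding base 580 to 669 is shown because it holds the densest differences, 5 in all, which are in capitals:
Cyp2a4: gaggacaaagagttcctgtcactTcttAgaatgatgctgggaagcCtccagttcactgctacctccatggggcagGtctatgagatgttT
Cyp2a5: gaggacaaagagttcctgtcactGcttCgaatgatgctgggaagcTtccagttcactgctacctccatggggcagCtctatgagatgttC
Fragments from the identical runs cannot be told apart, so the values of Cyp2a4, the lower of the pair in every group, are uncertain beside those of Cyp2a5.

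Promoter sequences (RefSeq, GRCm38.p6, from 250 bases before to 50 bases after the start) were found for 73 of the 94 members, with 83 promoters in all. The 250 bases before the start are printed for Cyp26a1, Cyp1a1, Cyp1a2 and Cyp2a5, 4 genes whose level was far higher in mTEChi than in mTEClo. Capitals mark 1 motif in each: a retinoic acid type direct repeat in Cyp26a1, a xenobiotic response core in Cyp1a1, and a TATA box in Cyp1a2 and Cyp2a5.
Cyp26a1, chr19:37697558-37697807, plus strand: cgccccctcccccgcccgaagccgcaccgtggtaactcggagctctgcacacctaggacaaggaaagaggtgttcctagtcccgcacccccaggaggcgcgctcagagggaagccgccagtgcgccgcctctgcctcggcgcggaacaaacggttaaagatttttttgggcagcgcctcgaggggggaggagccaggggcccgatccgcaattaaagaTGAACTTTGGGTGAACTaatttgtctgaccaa
Cyp1a1, chr9:57697363-57697612, plus strand: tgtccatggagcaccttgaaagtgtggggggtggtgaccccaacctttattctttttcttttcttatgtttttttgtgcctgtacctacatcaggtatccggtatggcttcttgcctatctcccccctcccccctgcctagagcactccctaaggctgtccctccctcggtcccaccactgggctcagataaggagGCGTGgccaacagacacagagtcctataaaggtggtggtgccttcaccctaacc
Cyp1a2, chr9:57683656-57683905, minus strand: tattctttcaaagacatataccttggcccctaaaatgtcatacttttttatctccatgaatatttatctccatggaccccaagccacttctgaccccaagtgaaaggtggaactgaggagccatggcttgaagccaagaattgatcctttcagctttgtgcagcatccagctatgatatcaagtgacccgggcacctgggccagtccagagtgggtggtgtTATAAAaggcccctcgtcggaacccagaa
Cyp2a5, chr7:26835089-26835338, plus strand: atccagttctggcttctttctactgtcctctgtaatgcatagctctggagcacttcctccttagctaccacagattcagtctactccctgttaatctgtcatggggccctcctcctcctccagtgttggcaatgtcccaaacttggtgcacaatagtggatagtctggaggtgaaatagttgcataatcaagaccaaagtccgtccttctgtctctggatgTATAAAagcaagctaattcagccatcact
The motifs were searched on both strands over the whole 300-base windows, and no matches of different motifs overlapped in a member promoter. TATAAA was in 32 of the 83 member promoters (38.6%) and in 13.6% of all 32851 promoters. GCGTG was in 17 (20.5%) against 32.4% of all promoters. The direct repeat, a pair of AGNTCA in the same direction with 5 bases between, was in 2 (2.41%), those of Cyp26a1 and Cyp2c50, against 0.204% of all promoters. The binding sequence of the liver factor HNF1 was in 0 against 0.0609%, which says only that it is not in these windows. A match is a description of the letters and not evidence of binding.

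The P450 genes divided into a small set that was expressed in mTEClo and a larger set that had few or no counts there and more in mTEChi. In WT mTEClo 27 of the 94 genes had a count of 0 in all 3 libraries, and in cHyper mTEClo 23 did; 18 had 0 in all 6 mTEClo libraries. In mTEChi no member was at 0 in a whole group, and 92 of the 94 had a count in each of the 6 libraries. A mean of at least 1 CPM was reached by 20 members in WT mTEClo (21.3%, against 35.3% of all genes in the table) and by 61 in WT mTEChi (64.9%, against 42.5%). In cHyper the same measure was 20 members in mTEClo (21.3%, against 35.2%) and 53 in mTEChi (56.4%, against 41.4%). At least 10 CPM was reached by 11, 11, 20 and 19 members, first in WT and cHyper mTEClo and then in WT and cHyper mTEChi. A count of 0 in a whole group allows a level of up to 0.0281, 0.0268, 0.0248 and 0.0265 CPM in the same order, from 3 counts over the group, for counting error only.

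**Figure D1:**
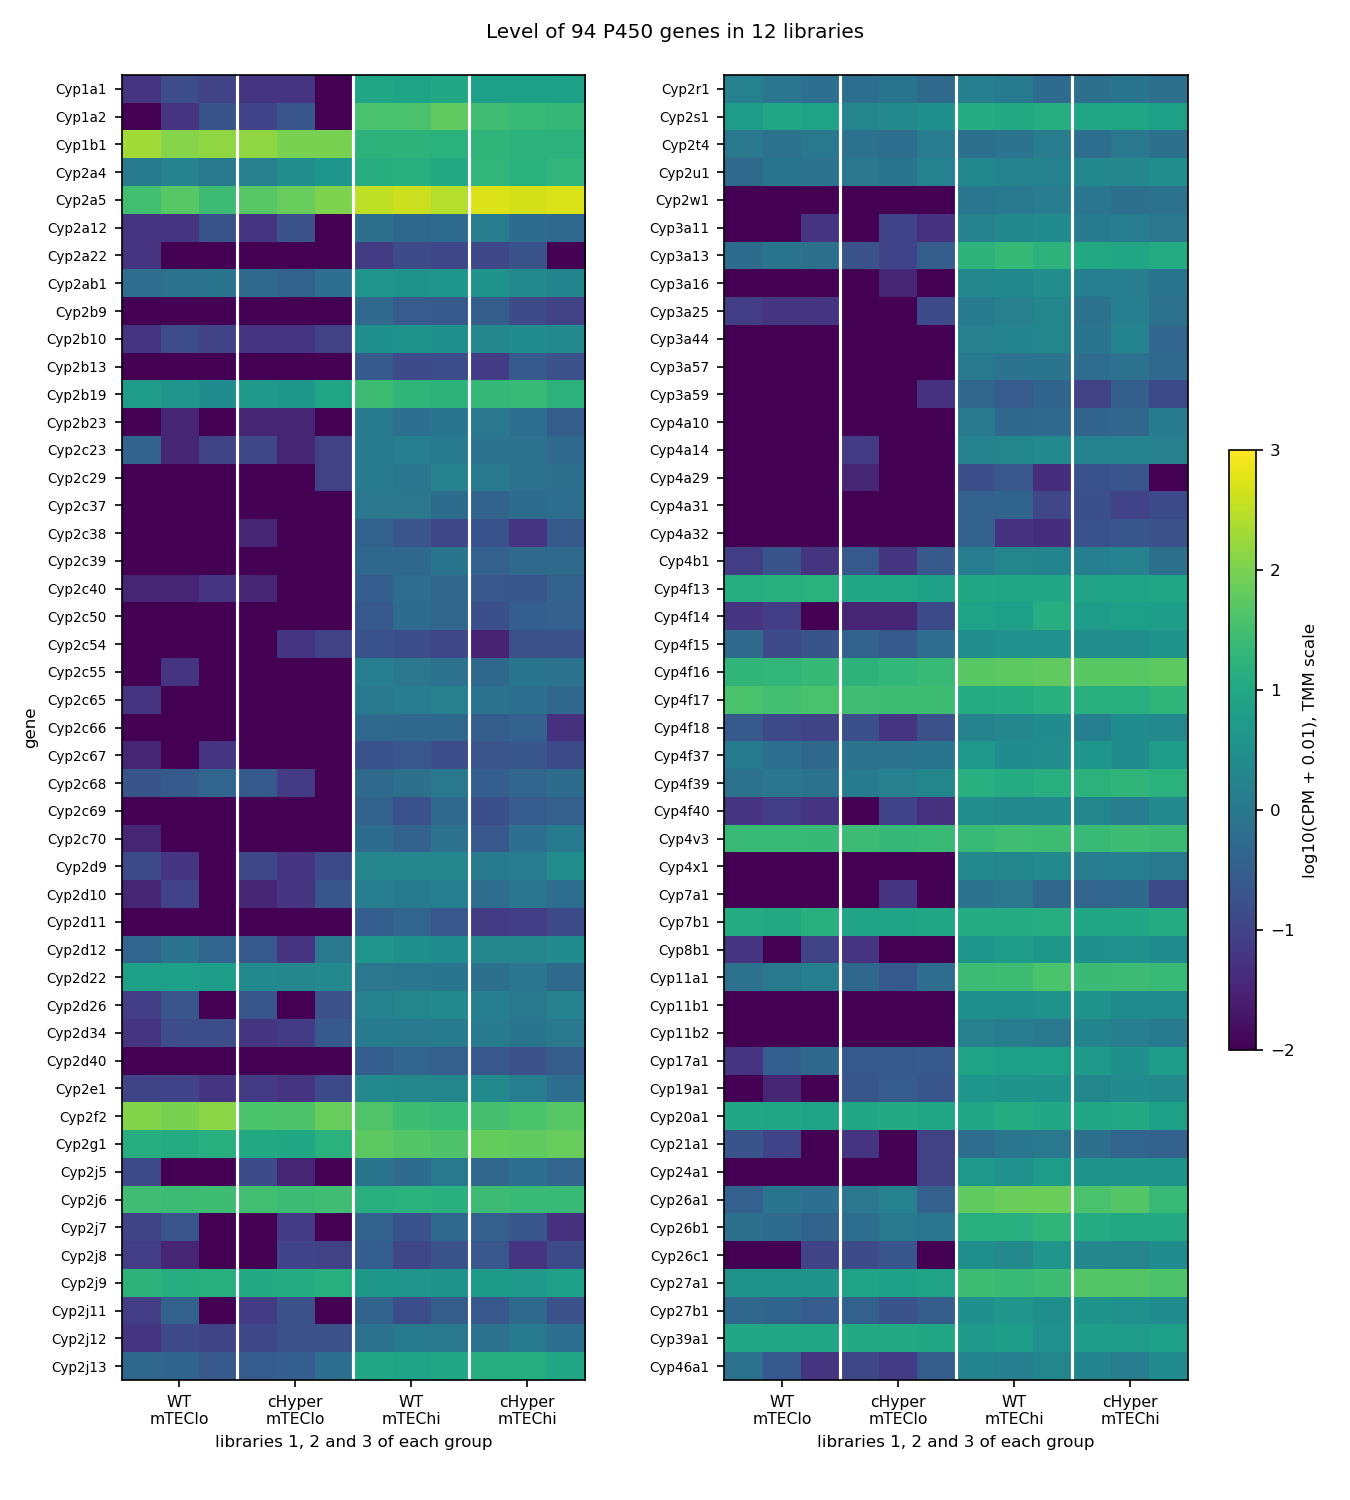
Heat map of log10(CPM + 0.01) for the 94 cytochrome P450 genes (rows, ordered by family) in the 12 libraries (columns, the 6 mTEClo libraries before the 6 mTEChi libraries). Most rows are lower in the mTEClo than in the mTEChi libraries, 79 of them without overlap in WT and 77 in cHyper, and a few rows such as Cyp1b1 and Cyp2d22 show the opposite.

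Compared per length, on the deposited TPM scale, few genes made up most of the P450 RNA. The 94 genes summed to 398, 339 and 365 TPM in the 3 WT mTEClo libraries, and to 279, 273 and 371 TPM in cHyper mTEClo. They summed to 1040.8, 1026.7 and 907 TPM in WT mTEChi and to 1201.1, 1027.4 and 1050.2 TPM in cHyper mTEChi. In WT mTEClo the highest levels were those of Cyp2f2 (124 TPM), a lung-type enzyme that activates naphthalene, Cyp1b1 (57.9), which oxidises oestrogens and polycyclic hydrocarbons, Cyp2a5 (37.2), a coumarin hydroxylase of liver and nose, Cyp4f17 (24.1) and Cyp2j6 (16.7). In WT mTEChi they were Cyp2a5 (395 TPM), Cyp26a1 (84.7), which breaks down retinoic acid, Cyp1a2 (53.8), a liver enzyme that metabolises caffeine, the olfactory enzyme Cyp2g1 (53.1) and Cyp4f16 (44.2). Cyp2a5 alone was 34.7 to 44.4% of the summed P450 TPM in the WT mTEChi libraries and 49.6 to 53.9% in the cHyper mTEChi libraries, ranges that do not overlap. In mTEClo its share was 7.40 to 15.3% in WT and 18.5 to 29.9% in cHyper, while that of Cyp2f2 was 29.9 to 38.4% in WT and 14.4 to 20.1% in cHyper. These shares are parts of one total and move against each other.

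The comparison of mTEChi with mTEClo within a genotype asks how the P450 genes differ between the 2 sorted populations. In WT, all 3 mTEChi libraries were above all 3 mTEClo libraries for 79 of the 94 genes and below them for 8 (background over the genes tested, 41.8% higher and 31.4% lower; over all genes with a count, 34.4% and 21.6%). In cHyper the same counts were 77 and 6 (background 40.3% and 28.4%; over all genes with a count, 31.7% and 19.9%). Of the 94, 85 passed the filter on low counts and were tested with edgeR at an adjusted p under 0.05. In WT 70 of them rose and 8 fell (background 40.2% and 29.4%, either way 69.5%), and in cHyper 71 rose and 5 fell (background 38.7% and 25.8%, either way 64.5%). The filter asks for about 0.234 CPM in 3 libraries. Of the 85, 52 met it only through mTEChi libraries, and 7 of these reached the level in 1 or 2 mTEClo libraries. The filter thus favoured genes that are higher in mTEChi, and 50 of the 52 rose in WT and 51 in cHyper. Among the 33 that reached it in mTEClo as well, 20 rose and 8 fell in WT, and 20 rose and 5 fell in cHyper. Over all 94 genes, with a count of 0 set to 3 counts, the median log2 ratio was 3.64 in WT and 3.33 in cHyper, against 0.36 and 0.35 over all genes. Scaling to library totals in place of TMM moved the median of all genes by 0.22 in WT and 0.17 in cHyper on the log2 scale and left the number that fell at 8 and 5. In bulk RNA, fewer cells that express a gene and less RNA per cell cannot be told apart.

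**Figure D2:**
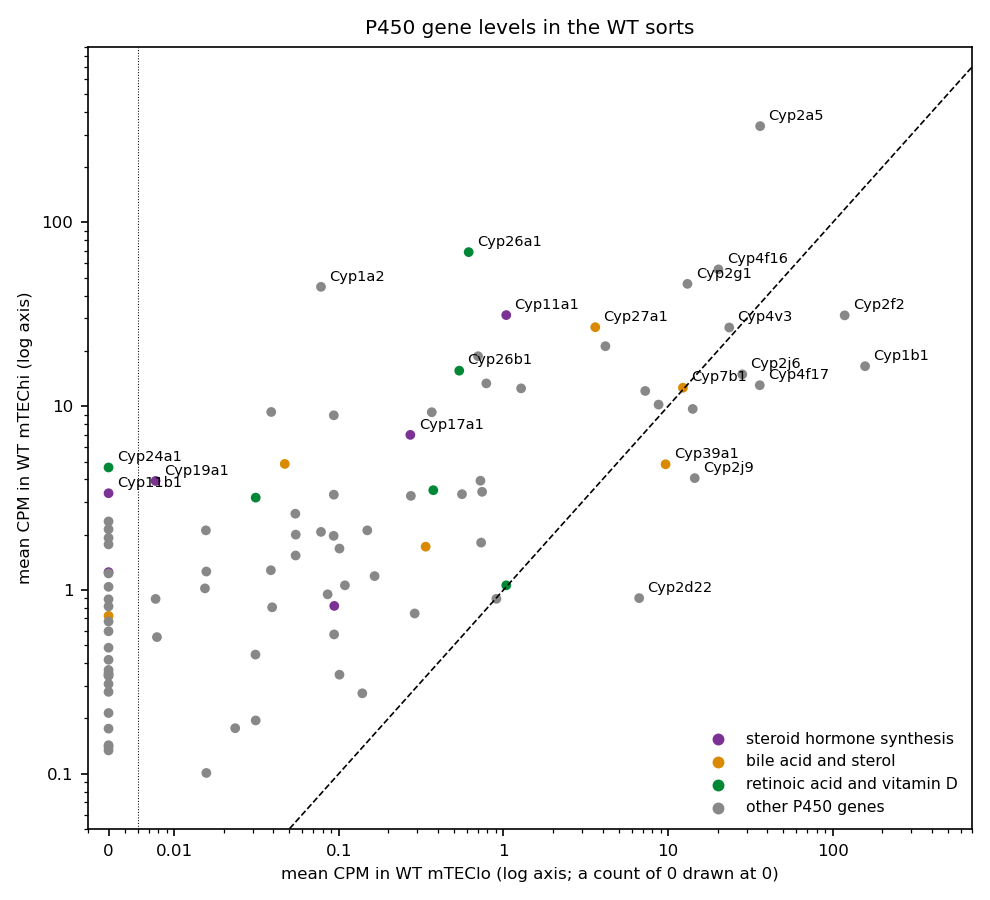
Mean CPM of each P450 gene in WT mTEClo (horizontal, log axis, a count of 0 drawn at 0) against WT mTEChi (vertical, log axis), coloured by role, with n = 3 libraries per group and the line of equality. Most points lie above the line, and Cyp1b1, Cyp2d22 and Cyp2f2 lie farthest below it.

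Other cell markers moved between the populations too. The 8 markers of gut- and liver-like cells (among them Hnf4a, Hnf4g, Vil1, Apoa4, Lgals4, Cdx1 and Fabp1) summed to 45.4 to 68.4 CPM in WT mTEClo and 826 to 1003.7 CPM in WT mTEChi, and 8 of 8 rose. The 7 myeloid and dendritic markers summed to 30.0 to 33.7 CPM and 484 to 648 CPM, and 7 of 7 rose, while the 4 tuft cell markers summed to 485 to 598 CPM and 91.4 to 128 CPM, and 4 of 4 fell. The background over the genes tested was 40.2% higher and 29.4% lower. At least Itgax and Adgre1 of the myeloid markers had passed the filter only through mTEChi libraries. Thymocyte, endothelial and erythroid markers summed to at most 16.4, 3.68 and 15.2 CPM in WT mTEClo and at least 48.7, 13.2 and 35.9 CPM in WT mTEChi, and fibroblast markers to 140 to 165 and 104 to 173 CPM. No listed marker was at 0. In cHyper the gut and liver markers summed to 39.2 to 65.5 and 761 to 816 CPM, the myeloid markers to 28.6 to 47.2 and 479 to 538 CPM, and the tuft markers to 327 to 466 and 105 to 141 CPM. Their part in the P450 differences was not tested.

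The foreign-compound enzymes of families 1 to 3 carried most of the count. Of 58 members, 52 were tested, of which 44 rose and 5 fell from mTEClo to mTEChi in WT, and 45 rose and 3 fell in cHyper (background 40.2% and 29.4% in WT, 38.7% and 25.8% in cHyper). Of the 52, 36 passed the filter only through mTEChi, and of the other 16, 10 rose and 5 fell in WT. Cyp1a2 was at 0, 0.0463 and 0.188 CPM in WT mTEClo and at 36.6, 36.8 and 60.5 CPM in WT mTEChi, a log2 difference of 9.53 ± 0.488 (SE, n = 3; adjusted p = 4.89e-10). Its neighbour Cyp1a1, the enzyme most strongly induced through the aryl hydrocarbon receptor, went from 0.0472, 0.139 and 0.0938 CPM to 8.70, 8.03 and 10.0 CPM (log2 6.52 ± 0.32, adjusted p = 3.41e-10). The groups of both genes lie far apart, and the third family 1 gene went the other way. Cyp1b1 was at 202, 125 and 145 CPM in WT mTEClo and at 17.0, 17.0 and 15.4 CPM in WT mTEChi, a fall of 9.54-fold (log2 −3.25 ± 0.19, adjusted p = 1.66e-09). In cHyper it was at 146, 98.1 and 97.0 CPM and at 18.6, 16.4 and 16.1 CPM (log2 −2.73 ± 0.187, adjusted p = 1.17e-08).

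Cyp2a5 rose from 30.8, 50.8 and 26.9 CPM in WT mTEClo to 330, 390 and 280 CPM in WT mTEChi (log2 3.20 ± 0.272, adjusted p = 8.7e-08). Cyp2g1 rose from 13.3, 11.9 and 14 CPM to 53.8, 45.0 and 40.0 CPM (log2 1.83 ± 0.165, adjusted p = 1.65e-07), and Cyp3a13, a gut and liver relative of the main drug oxidase, from 0.567, 0.833 and 0.704 CPM to 17.1, 22 and 17.0 CPM (log2 4.73 ± 0.243, adjusted p = 5.06e-10). The groups did not overlap for any of these genes. Other liver enzymes were near the limit of counting in mTEClo: Cyp3a16 and Cyp3a44 had 0 counts there in WT, and were at least 81.2-fold and 61.8-fold higher in WT mTEChi. Cyp2c29 was at least 41.5-fold higher, from 0 to 141 counts over the group. The falls were those of Cyp2d22 (6.67 to 0.903 CPM on average, log2 −2.88 ± 0.217), Cyp2f2 (118 to 31.2 CPM, log2 −1.91 ± 0.252), the fatty acid oxidase Cyp2j9 (14.5 to 4.06 CPM, log2 −1.83 ± 0.167) and its relative Cyp2j6 (28.2 to 14.9 CPM, log2 −0.92 ± 0.101). For these 4 genes the WT libraries of mTEClo were all above those of mTEChi.

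In cHyper, Cyp2d22 (log2 −1.61 ± 0.224, adjusted p = 1.86e-05) and Cyp2j9 (log2 −1.08 ± 0.163, adjusted p = 4.24e-05) fell, whereas Cyp2f2 (log2 −0.30 ± 0.246, adjusted p = 0.292) and Cyp2j6 (log2 −0.22 ± 0.0997, adjusted p = 0.0648) did not pass the test. With the replicate number as a block, Cyp2j6 had an adjusted p of 0.0488, and it passed when any of 6 single libraries was left out (0.0371 to 0.0447). The tests of these genotype differences are given below, since passing in one genotype and not in the other is no such test.

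Many members sit in runs of neighbouring genes, and in 4 of 8 such runs members moved in both directions. Runs were defined as 3 or more members on a chromosome (mm10) with gaps of at most 500 kb. The Cyp2d run (chr15:82370527-82794294, 8 genes) held 7 tested members that rose from mTEClo to mTEChi in WT and 1 that fell, Cyp2d22, at the edge of the run. The Cyp2c run (chr19:39007019-40187333, 14 genes) held 11 tested members, and 11 rose. The Cyp3a run (chr5:145345279-146113287) held 6, and 6 rose. In the Cyp4f run (chr17:32452723-32947402, 8 genes) 6 rose and 2 fell, and in the Cyp2j run (chr4:96027534-96664154, 8 genes) 3 of 7 tested members rose and 2 fell. In the longest run (chr7:25802475-27158668, 13 genes), which holds the Cyp2a, Cyp2b and Cyp2g genes, 9 of 11 tested members rose and 1, Cyp2f2, fell. In the 2 other runs every tested member rose, 4 from Cyp4x1 to Cyp4b1 on chromosome 4 and 3 on chromosome 9 (Cyp1a2, Cyp1a1 and Cyp11a1). The background was 40.2% higher and 29.4% lower. All tested members of the Cyp2c, Cyp3a and Cyp4x1 to Cyp4b1 runs had passed the filter only through mTEChi. So had 6 of 8 tested members in the Cyp2d run, 4 of 7 in the Cyp2j run and 2 of 8 in the Cyp4f run. On chromosome 7 this held for 4 of 11, and on chromosome 9 for 2 of 3. The filter favoured a rise of such members. Neighbours of one subfamily are alike in sequence.

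**Figure D3:**
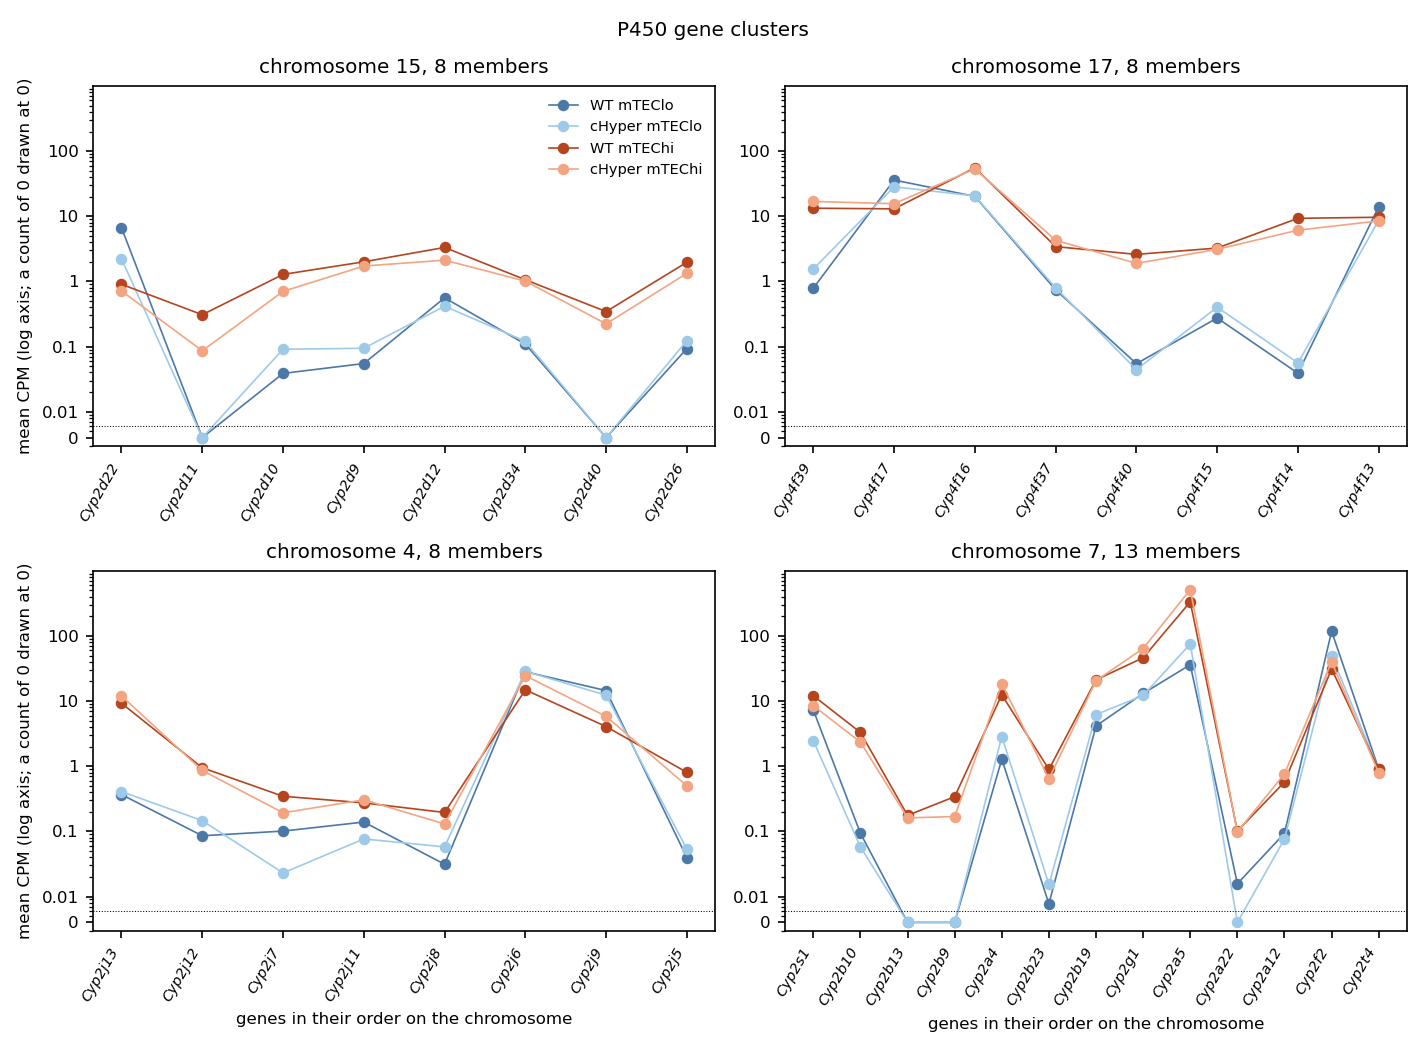
Mean CPM of the P450 genes of 4 runs in gene order (horizontal) for the 4 groups (log axis, a count of 0 drawn at 0; n = 3 libraries per group). In the chromosome 15 panel Cyp2d22 is the gene whose mTEClo points lie above its mTEChi points, and in the chromosome 4 panel Cyp2j6 and Cyp2j9 are.

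Family 4, the fatty acid hydroxylases, had 14 tested members of 17. From mTEClo to mTEChi 11 rose and 2 fell in WT (background 40.2% and 29.4%). In cHyper 11 rose and 1 fell (background 38.7% and 25.8%). All 4 tested members of the Cyp4x1 to Cyp4b1 run passed the filter only through mTEChi libraries. So did 2 of the 8 in the Cyp4f run. Cyp4f14, an enzyme that inactivates the inflammatory lipid leukotriene B4, was at 0.0472, 0.0694 and 0 CPM in WT mTEClo and at 7.92, 6.67 and 13.3 CPM in WT mTEChi (log2 7.54 ± 0.476, adjusted p = 3.61e-09). Cyp4f17 moved the other way in the same run, from 38.5, 32.0 and 37.5 CPM to 11.8, 12.2 and 15.2 CPM (log2 −1.47 ± 0.137, adjusted p = 2.26e-07). Cyp4f13 fell from 12.9, 13.8 and 15.5 CPM to 9.83, 9.24 and 9.92 CPM (log2 −0.54 ± 0.137, adjusted p = 0.00281). Cyp4v3, a retinal fatty acid hydroxylase that is widely expressed, was between 21.3 and 29.1 CPM in all 12 libraries and did not pass the test in WT, except with library totals (adjusted p = 0.00469), DESeq2 size factors (0.037) and DESeq2 (0.0291). Cyp4x1 had 0 counts in all 6 mTEClo libraries and was at least 75.6-fold higher in WT mTEChi.

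The 6 genes of steroid hormone synthesis all rose from mTEClo to mTEChi in both genotypes (background 40.2% higher in WT and 38.7% in cHyper). At least Cyp11b1, Cyp11b2 and Cyp19a1 had passed the filter only through mTEChi libraries. The pooled ratios of the 6 genes, with a count of 0 set to 3 counts, had a median log2 of 5.24 in WT and 5.03 in cHyper. Cyp11a1, which cleaves the cholesterol side chain in the first step, was at 0.732, 0.995 and 1.41 CPM in WT mTEClo and at 26.6, 28.5 and 38.9 CPM in WT mTEChi (log2 4.96 ± 0.26, adjusted p = 5.83e-10). Cyp17a1, which leads to androgens and cortisol-type steroids, went from 0.0472, 0.301 and 0.469 CPM to 7.43, 6.69 and 6.82 CPM (log2 4.83 ± 0.422, adjusted p = 1.15e-07). The adrenal enzymes Cyp11b1 and Cyp11b2, which finish corticosterone and aldosterone, had 0 counts in all 6 mTEClo libraries. They had 400 and 156 counts in the WT mTEChi libraries, at least 118-fold and 45.9-fold higher, and in cHyper they were at least 116-fold and 55.6-fold higher. The 21-hydroxylase Cyp21a1 was at 0.594, 0.888 and 0.974 CPM in WT mTEChi and 0.189, 0.0926 and 0 CPM in WT mTEClo (log2 2.88 ± 0.634, adjusted p = 0.000938). Its locus overlaps Tnxa on the other strand, whose counts (377 over all libraries, against 170 for Cyp21a1) exceed its own. Of 9 other genes of steroid handling on the fixed list, 8 rose and 1, the 5-alpha-reductase Srd5a1, fell in both genotypes. At least Hsd3b1, Hsd3b6, Hsd17b1, Hsd17b3 and Srd5a2 had passed the filter only through mTEChi libraries, so the filter favoured their rise. The background was 40.2% higher and 29.4% lower in WT, and 38.7% and 25.8% in cHyper. The 3-beta-hydroxysteroid dehydrogenase Hsd3b6 rose from 0.0309 to 10.8 CPM in WT (log2 8.05 ± 0.451, adjusted p = 1.1e-09).

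Aromatase, Cyp19a1, which turns androgens into oestrogens, had 1 count in the 3 WT mTEClo libraries together (0, 0.0231 and 0 CPM) and 482 in WT mTEChi (4.29, 3.94 and 3.54 CPM). The ratio was 426 (95% counting interval 76.0 to 16843.4). In cHyper it was at 0.206, 0.276 and 0.204 CPM in mTEClo and at 1.98, 2.56 and 2.43 CPM in mTEChi (log2 3.31 ± 0.302, adjusted p = 2.41e-07).

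Among the 6 genes of bile acid and sterol turnover, 4 rose and 1 fell from mTEClo to mTEChi in each genotype. The background was 40.2% higher and 29.4% lower in WT, and 38.7% and 25.8% in cHyper. At least Cyp7a1 and Cyp8b1 had passed the filter only through mTEChi libraries. Cyp27a1, the mitochondrial enzyme that oxidises the cholesterol side chain, rose from 3.47, 3.52 and 3.85 CPM to 28.0, 24.9 and 27.9 CPM in WT, 7.48-fold (log2 2.90 ± 0.118, adjusted p = 8.89e-11). Cyp8b1, the liver 12-alpha-hydroxylase, went from 4 counts to 593, at 4.27, 5.78 and 4.51 CPM in WT mTEChi (log2 6.88 ± 0.505, adjusted p = 1.78e-08). Cyp7a1, the rate-limiting enzyme of bile acid synthesis, had 0 counts in WT mTEClo and 93 in WT mTEChi, at least 27.4-fold higher, yet its level there was only 0.433 to 0.931 CPM. The brain cholesterol hydroxylase Cyp46a1 rose to 1.80, 1.41 and 1.95 CPM (log2 2.20 ± 0.542, adjusted p = 0.0022). Cyp39a1, an oxysterol hydroxylase, fell from 9.47, 10.1 and 9.34 CPM to 5.07, 5.98 and 3.43 CPM (log2 −0.99 ± 0.181, adjusted p = 0.000198). Cyp7b1, which acts on oxysterols and steroids, was at 11.7, 10.5 and 14.6 CPM and at 12.7, 12.3 and 12.9 CPM, overlapping ranges (log2 0.05 ± 0.149, adjusted p = 0.793). In cHyper Cyp7b1 had a log2 difference of 0.34 ± 0.151 (adjusted p = 0.0602, and 0.0311 with the replicate block, 0.0121 with library totals, 0.0378 with DESeq2 size factors and 0.0246 with DESeq2).

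Of the 6 genes of retinoic acid and vitamin D turnover, 5 rose from mTEClo to mTEChi in each genotype (background 40.2% higher in WT and 38.7% in cHyper). At least Cyp24a1 and Cyp26c1 had passed the filter only through mTEChi libraries. The retinoic acid hydroxylase Cyp26a1, whose upstream sequence with the direct repeat is printed above, was at 0.331, 0.856 and 0.657 CPM in WT mTEClo and at 61.3, 70.7 and 74.6 CPM in WT mTEChi (log2 6.81 ± 0.399, adjusted p = 1.71e-09). Cyp26b1 rose from 0.685, 0.556 and 0.375 CPM to 13.9, 14.5 and 18.4 CPM (log2 4.79 ± 0.241, adjusted p = 4.21e-10). Cyp26c1 had 2 counts in WT mTEClo and 367 in WT mTEChi, a ratio of 162 (95% counting interval 44.5 to 1342.8). All 3 retinoic acid hydroxylases were thus higher in mTEChi without overlap. Cyp24a1, which inactivates vitamin D, had 0 counts in WT mTEClo and 539 in WT mTEChi (4.69, 3.36 and 5.88 CPM), at least 159-fold higher. Cyp27b1, which activates vitamin D, rose from 0.449, 0.393 and 0.281 CPM to 3.20, 4.11 and 3.14 CPM (log2 3.16 ± 0.286, adjusted p = 1.67e-07). Cyp2r1, a vitamin D 25-hydroxylase, was at 1.54, 0.926 and 0.657 CPM and at 1.46, 1.17 and 0.541 CPM and did not pass the test (log2 0.02 ± 0.381, adjusted p = 0.961). Cyp24a1 overlaps Pfdn4, a widely expressed chaperone gene on the other strand with 6993 counts against 938.

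A fixed list of members whose human counterparts are known autoantigens held 5: Cyp1a2, Cyp2a5 (the mouse relative of CYP2A6), Cyp11a1, Cyp17a1 and Cyp21a1. It left out the Cyp2d genes, mouse relatives of the liver autoantigen CYP2D6, of which 7 rose and Cyp2d22 fell in WT (log2 −2.88). The 5 on the list rose in WT and in cHyper (background 40.2% and 38.7% higher). At least Cyp1a2 of the 5, and 6 of the 8 Cyp2d genes, had passed the filter only through mTEChi libraries. Cyp21a1 was under the filter level of 0.234 CPM in every WT mTEClo library. The filter favoured a rise of such genes. For the 5 on the list, the median log2 of the pooled ratios was 4.90 and 4.27. Their mean levels in WT mTEChi ran from 0.819 CPM for Cyp21a1 to 334 CPM for Cyp2a5.

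**Figure D4:**
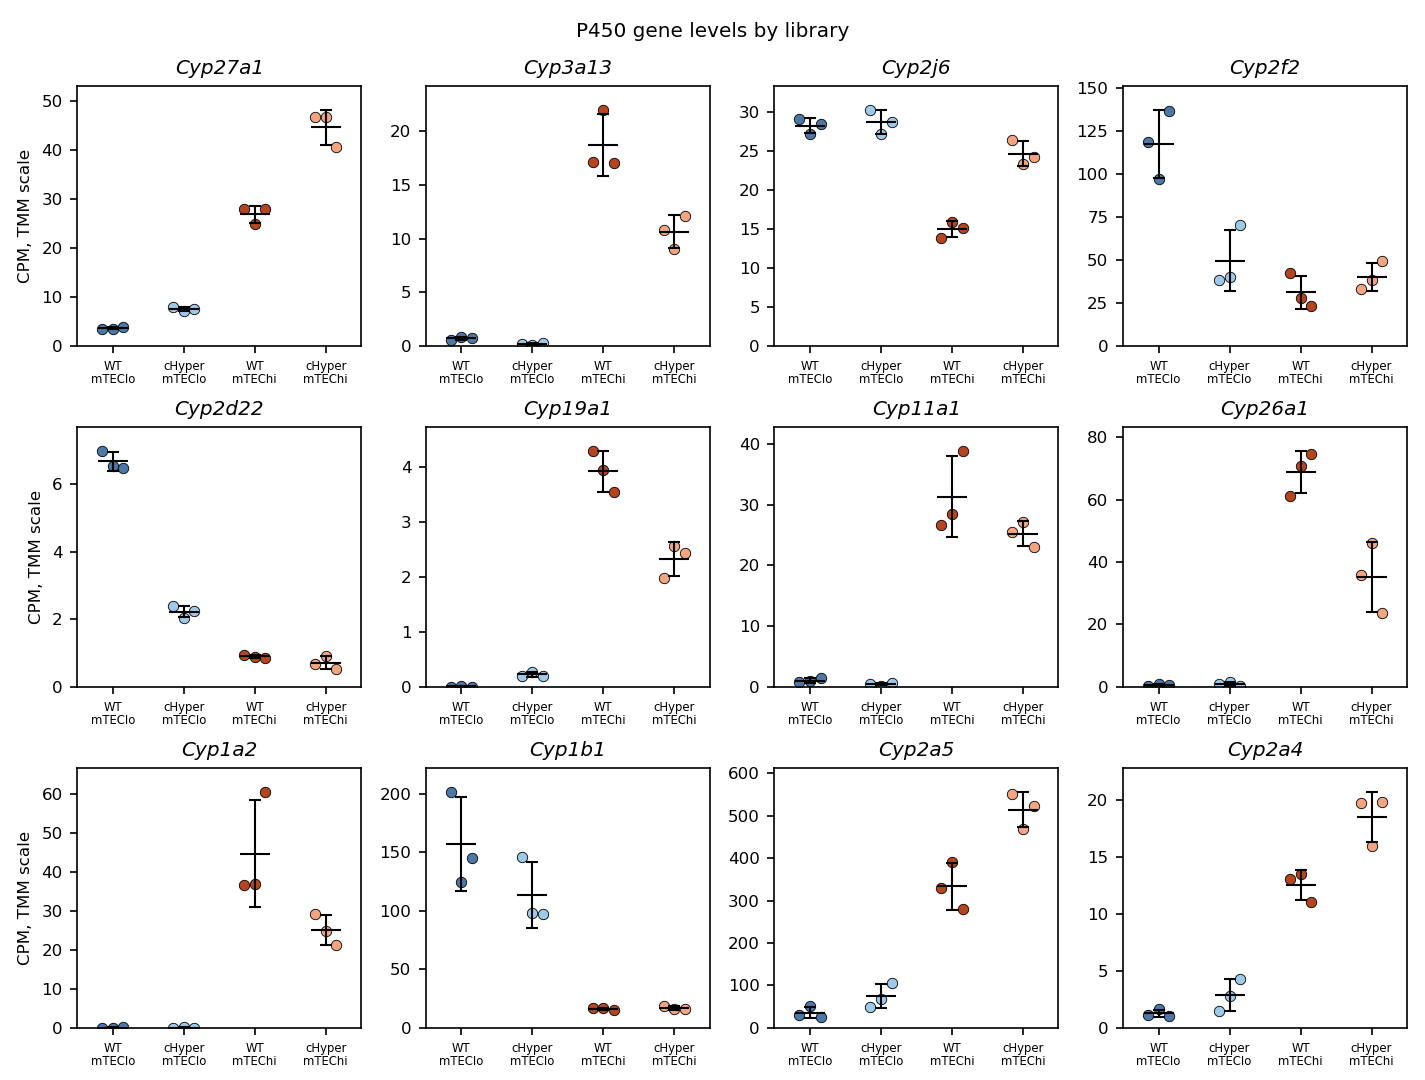
CPM of 12 P450 genes in every library (points), with the mean and SD of each group (n = 3). The cHyper points of Cyp27a1 lie above the WT points in both populations, those of Cyp3a13 lie below them in both. Cyp2j6 points overlap between the genotypes in mTEClo and do not in mTEChi.

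The comparison of cHyper with WT within a population asks what the Trp53 genotype changes. In mTEClo, 12 of the 85 tested P450 genes differed, 5 higher and 7 lower in cHyper (background 9.16% either way, 4.53% higher and 4.64% lower). Over the 94 genes the 3 cHyper libraries were all above WT for 3 and all below for 10 (background 11.8% and 12.6%; over all genes with a count, 9.77% and 11.0%), and the median log2 difference of the members tested was 0.00, as for all genes. Of the 33 members that reached the filter level in mTEClo, 4 rose and 7 fell. The members' counts were not tested against the background.

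Cyp27a1 was the clearest rise in mTEClo: 3.47, 3.52 and 3.85 CPM in WT and 7.91, 7.06 and 7.61 CPM in cHyper (log2 1.06 ± 0.117, adjusted p = 4.21e-05). Cyp19a1 rose from 1 count to 26, a ratio of 24.8 (95% counting interval 4.08 to 1018.6; fitted log2 4.21 ± 0.675, adjusted p = 0.0011), and had counts in all 3 cHyper libraries. Cyp4f39, an enzyme of skin lipid synthesis, was at 0.709, 0.903 and 0.751 CPM in WT and 1.14, 1.52 and 2.0 CPM in cHyper (log2 0.94, adjusted p = 0.0163). That call ended without WT mTEClo replicate 1 (adjusted p = 0.0684) or 3 (0.0528), without cHyper mTEClo replicate 3 (0.055), in limma-voom (0.109), with only the groups compared (0.111) and in replicates 1 and 2 alone (0.135). Cyp2a5 was at 30.8, 50.8 and 26.9 CPM in WT and 50.4, 68.4 and 107 CPM in cHyper, overlapping ranges (log2 1.05 ± 0.255, adjusted p = 0.0181). Its call ended without WT mTEClo replicate 1 (0.0732) or 3 (0.0816), without cHyper mTEClo replicate 3 (0.0724), with only the groups compared (0.0633), and in replicates 1 and 2 alone, where its log2 difference was 0.52 (adjusted p = 0.199). Its near-copy Cyp2a4, at 1.16, 1.64 and 1.03 CPM in WT and 1.51, 2.78 and 4.28 CPM in cHyper, also overlapped (log2 1.09, adjusted p = 0.0372). Its adjusted p was 0.0526 to 0.293 under 11 alternatives, among them leaving out any of 8 single libraries. The log2 difference of Cyp2a4 was 0.59 in replicates 1 and 2 alone (adjusted p = 0.293) and 0.70 without cHyper mTEClo replicate 3 (adjusted p = 0.128).

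Cyp2d22, Cyp2s1, Cyp3a13 and Cyp2f2 were lower in cHyper mTEClo. Cyp2d22, the mouse relative of the human drug oxidase CYP2D6, was at 6.99, 6.55 and 6.47 CPM in WT and 2.40, 2.05 and 2.24 CPM in cHyper (log2 −1.58 ± 0.202, adjusted p = 0.000161). Cyp2s1, an epithelial enzyme at the end of the chromosome 7 run, was at 5.81, 8.52 and 7.46 CPM and at 1.9, 2.28 and 3.22 CPM (log2 −1.58 ± 0.215, adjusted p = 0.000282). Cyp3a13 was at 0.567, 0.833 and 0.704 CPM and at 0.183, 0.0920 and 0.285 CPM (log2 −2.0 ± 0.347, adjusted p = 0.00201). Cyp2f2 was at 119, 97.2 and 137 CPM and at 38.5, 40.3 and 70.4 CPM (log2 −1.25 ± 0.247, adjusted p = 0.00518). For these 4 genes every cHyper library was below every WT library. Cyp3a13 shares its strand with Gm15502 (2479 counts against 3561 for Cyp3a13), and Cyp2f2 overlaps Gm15883 on the other strand (4978 against 25611), so some of their counts could belong elsewhere.

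Cyp11a1, Cyp4f13 and Cyp7b1 made up the other falls. Cyp11a1 was at 0.732, 0.995 and 1.41 CPM in WT and at 0.480, 0.230 and 0.611 CPM in cHyper (log2 −1.25 ± 0.332, adjusted p = 0.0288). Its call ended without WT mTEClo replicate 2 (0.0608) or 3 (0.0929), without cHyper mTEClo replicate 1 (0.0522) or 2 (0.132), in limma-voom (0.148) and with only the groups compared (0.134), and it shares its strand with Gm17322. Cyp4f13 was at 12.9, 13.8 and 15.5 CPM and at 9.76, 8.99 and 7.25 CPM (log2 −0.69, adjusted p = 0.0055, and 0.0603 in replicates 1 and 2 alone). Cyp7b1 was at 11.7, 10.5 and 14.6 CPM and at 8.39, 8.30 and 8.67 CPM (log2 −0.53, adjusted p = 0.0396). Its adjusted p was 0.0505 to 0.143 under 10 alternatives, among them leaving out any 1 cHyper mTEClo library. Cyp1b1, at 202, 125 and 145 CPM in WT and 146, 98.1 and 97.0 CPM in cHyper, did not pass (log2 −0.47, adjusted p = 0.111), and did with the replicate number as a block (0.0148), without the filter (0.0394), without WT mTEClo replicate 2 (0.0434) and without cHyper mTEClo replicate 1 (0.0183). With WT mTEClo replicate 3 left out 7 members were called, and with only the groups compared 6 of the 34 then tested.

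Markers of other cells also differed between the genotypes in mTEClo. Aire rose from 14.3 to 44.5 CPM on average, the tuft cell markers summed to 485 to 598 CPM in WT and 327 to 466 CPM in cHyper, with Trpm5 falling, and the thymocyte markers summed to 2.06 to 16.4 and 13.9 to 31.3 CPM. Of the 8 gut and liver markers Vil1 and Lgals4 fell, and the list summed to 45.4 to 68.4 and 39.2 to 65.5 CPM. The erythroid markers summed to 10.3 to 15.2 and 2.93 to 6.85 CPM, without overlap, with Hbb-bs falling from 11.8 to 3.82 CPM. Of the 5 fibroblast markers Col3a1 (24.0 to 68.4 CPM) and Dpt (1.70 to 10.1 CPM) rose and Pdgfra (2.73 to 0.884 CPM) fell, and the list summed to 140 to 165 and 158 to 223 CPM. The myeloid markers (30.0 to 33.7 and 28.6 to 47.2 CPM, with C1qb falling) and endothelial markers (2.11 to 3.68 and 1.18 to 2.76 CPM) overlapped. Their part in the P450 differences was not tested.

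In mTEChi 3 of the 85 tested P450 genes differed between the genotypes, 2 higher and 1 lower in cHyper (background 1.98% either way, 1.56% higher and 0.418% lower), and 20 had an unadjusted p under 0.05. Cyp27a1 was at 28.0, 24.9 and 27.9 CPM in WT and 46.8, 46.8 and 40.6 CPM in cHyper, 1.66-fold higher (log2 0.73 ± 0.105, adjusted p = 0.00171). Cyp2j6 was at 13.9, 15.9 and 15.1 CPM and at 26.4, 23.3 and 24.2 CPM (log2 0.72 ± 0.101, adjusted p = 0.00139). Cyp3a13 was at 17.1, 22 and 17.0 CPM and at 10.8, 9.04 and 12.1 CPM (log2 −0.82 ± 0.192, adjusted p = 0.0428). The groups did not overlap for any of the 3. The call of Cyp3a13 ended when any 1 of the 6 mTEChi libraries was left out (adjusted p = 0.0848 to 0.201) and in replicates 1 and 2 alone (0.0769). Cyp27a1 and Cyp3a13 therefore passed the test in both populations, in the same direction in each.

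Many other members were lower in cHyper mTEChi by amounts that did not pass. The mean was lower in 73 of the 94 genes and higher in 21, a count that was not made over all genes. All cHyper libraries were below all WT libraries for 24 and above them for 8 (background 13.3% lower and 12.4% higher; over all genes with a count, 10.4% and 8.67%). Members of one subfamily are alike in sequence, so these counts are not of independent genes. The median log2 difference of the members tested was −0.44 against 0.00 for all genes tested. By run the median was −0.81 for the 6 Cyp3a genes, −0.67 for the Cyp2c genes, −0.62 for the Cyp2d genes and −0.06 for the Cyp4f genes, whereas it was 0.20 for the Cyp2j genes and −0.04 for the run on chromosome 7. Over the same libraries the summed gut and liver markers were 826 to 1003.7 CPM in WT mTEChi and 761 to 816 CPM in cHyper mTEChi, with none of the 8 called, and the myeloid markers were 484 to 648 and 479 to 538 CPM, with Adgre1 falling. The endothelial markers (13.2 to 16.8 and 11.6 to 12 CPM) and the erythroid markers (35.9 to 47.1 and 31.7 to 32.8 CPM) were lower in cHyper without overlap, with no single gene called. The fibroblast markers were 104 to 173 and 106 to 122 CPM, the thymocyte markers 48.7 to 55.9 and 51.8 to 67.4 CPM and the tuft markers 91.4 to 128 and 105 to 141 CPM, with Pou2f3 rising. Of the epithelial markers Krt5, Krt14 and Ccl21a rose. The part of such cells in the lower P450 values was not tested.

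Of these, Cyp26a1 was at 61.3, 70.7 and 74.6 CPM in WT and 36.0, 46.1 and 23.8 CPM in cHyper (log2 −0.96 ± 0.28, adjusted p = 0.108). Its adjusted p was 0.0197 with the replicate number as a block, 0.0151 in limma-voom, 0.00514 without the filter, 0.0398 without cHyper mTEClo replicate 3 and 0.0152 with only the groups compared. Cyp1a2 was at 36.6, 36.8 and 60.5 CPM and at 29.1, 24.9 and 21.2 CPM (log2 −0.83 ± 0.262, adjusted p = 0.143, and 0.01 in DESeq2, 0.0207 without the filter and 0.0303 with only the groups compared). Cyp19a1 was at 4.29, 3.94 and 3.54 CPM and at 1.98, 2.56 and 2.43 CPM (log2 −0.76 ± 0.236, adjusted p = 0.133, and 0.0199 in DESeq2, 0.0407 in limma-voom and 0.0494 with only the groups compared). Under the other alternatives tested none of these 3 genes passed, with adjusted p up to 0.362, 0.477 and 0.36 in the same order. For each of the 3 every cHyper library was below every WT library. Cyp2a5 ran the other way, at 330, 390 and 280 CPM in WT and 552, 469 and 523 CPM in cHyper (log2 0.63 ± 0.25, adjusted p = 0.255, and 0.0203 with only the groups compared). Cyp2g1, at 53.8, 45.0 and 40.0 CPM and at 65.9, 58.9 and 67.8 CPM, had a log2 difference of 0.47 ± 0.157 (adjusted p = 0.167).

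**Figure D5:**
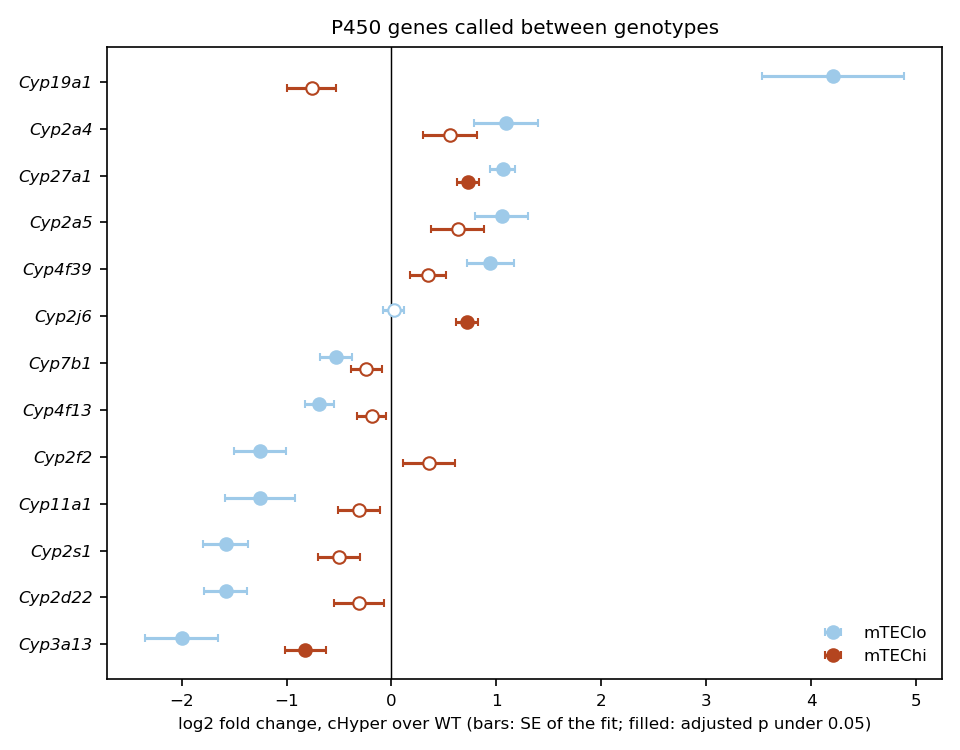
Log2 difference of cHyper against WT (points, with SE; n = 3 libraries per group) in mTEClo and in mTEChi for the 13 P450 genes called in either comparison, filled where the adjusted p was under 0.05. Cyp27a1 is to the right of 0 and Cyp3a13 to the left of it in both populations, and Cyp19a1 has the widest gap between them.

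Whether the genotype difference itself differed between mTEChi and mTEClo was tested as an interaction, and 3 of the 85 members passed, 2 with a positive and 1 with a negative difference (background 2.06% either way, 1.13% positive and 0.926% negative). Cyp19a1 was higher in cHyper in mTEClo and at a log2 of −0.76 in mTEChi, and the difference of the effects was −4.98 ± 0.71 (adjusted p = 0.00196), with 1 count in WT mTEClo. Cyp2f2 was lower in cHyper in mTEClo and at a log2 of 0.36 ± 0.246 in mTEChi, a difference of 1.60 ± 0.348 (adjusted p = 0.0294). Cyp2j6 was at 29.1, 27.2 and 28.4 CPM in WT mTEClo and 30.3, 27.2 and 28.7 CPM in cHyper mTEClo, and its rise in cHyper mTEChi gave a difference of 0.70 ± 0.142 (adjusted p = 0.0198). The call of Cyp2f2 ended when any of 8 single libraries was left out (adjusted p = 0.0514 to 0.0742). That of Cyp2j6 ended without WT mTEClo replicate 1 (0.0506), cHyper mTEClo replicate 2 (0.0567), WT mTEChi replicate 1 (0.0538) or cHyper mTEChi replicate 1 (0.0684), and in replicates 1 and 2 alone (0.108). Cyp2d22 had a difference of 1.27 ± 0.31 (adjusted p = 0.0505, and 0.0437 with the replicate block, 0.00824 in DESeq2 and 0.0423 without cHyper mTEChi replicate 3). Neither Cyp27a1 (−0.33 ± 0.157, adjusted p = 0.36) nor Cyp3a13 (1.19 ± 0.402, adjusted p = 0.168) passed, which does not show equal effects. These 5 comparisons share libraries in pairs, so they are not independent of one another.

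The genes that serve or control P450 enzymes were taken from fixed lists of 9 electron donor and haem genes, 20 regulators and 22 conjugating and related enzymes. Of the first list, 3 rose and 2 fell from mTEClo to mTEChi in WT (background 40.2% and 29.4%), shares below the background. The reductase Por, which feeds electrons to most P450 enzymes, did not pass (log2 −0.03 ± 0.106, adjusted p = 0.821). The haem oxygenase Hmox1 rose from 24.9 to 96.6 CPM in WT (log2 1.96 ± 0.114, adjusted p = 1.64e-09), and Alas1, the first step of haem synthesis, from 57.6 to 306 CPM in cHyper (log2 2.41 ± 0.124, adjusted p = 8.49e-10). Of the regulators 10 rose and 5 fell in WT, near the background shares. The conjugation list of 22 enzymes, many of which act on P450 products, also holds the epoxide hydrolases Ephx1 and Ephx2 and the quinone reductase Nqo1. Of the 22, 17 rose and 3 fell in WT (background 40.2% and 29.4%). Some, among them Gstm3 (0.11 CPM on average in WT mTEClo), had passed the filter only through mTEChi libraries. The glutathione transferases Gstm3 (log2 7.16 ± 0.354) and Gstm1 (log2 2.58 ± 0.147) rose.

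Between the genotypes in mTEClo, 2 electron donor or haem genes rose, Pgrmc1 (350 to 459 CPM, log2 0.39, adjusted p = 0.0151) and Hmox1 (24.9 to 32.9 CPM, log2 0.40, adjusted p = 0.0364). Of the regulators the vitamin D receptor Vdr fell from 48.2 to 32.2 CPM (log2 −0.59 ± 0.114, adjusted p = 0.00452). Of the conjugation list Nqo1 rose (16.4 to 24.4 CPM, log2 0.57, adjusted p = 0.0304). The calls of Pgrmc1, Nqo1 and Hmox1 ended without WT mTEClo replicate 3 (adjusted p = 0.0732, 0.137 and 0.0989) and, in the same order, without cHyper mTEClo replicate 1 (0.0595, 0.0773 and 0.0593) or 2 (0.0677, 0.13 and 0.152). That of Nqo1 also ended without WT mTEChi replicate 2 (0.0521) and in replicates 1 and 2 alone (0.0503), and that of Hmox1 under 12 alternatives in all (0.0505 to 0.152). In mTEChi Gstt1 rose from 21.4 to 30.1 CPM (log2 0.49 ± 0.101, adjusted p = 0.0201). That call ended with library totals (0.0551), without the filter (0.0569), in replicates 1 and 2 alone (0.0624) and without any 1 of 5 mTEChi libraries (0.0524 to 0.114).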

How the data were processed

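Poly(A) RNA of 12 libraries was sequenced (Illumina TruSeq Stranded mRNA, paired ends, per the labels' protocols). The 20 samples are 12 libraries, where replicates 1 and 2 of each group are 2 samples each with different run tags and 1 column in the table. Per the submitters' processing notes, the authors used featureCounts (Subread 2.0.1), SAMtools 1.9 and TopHat2 2.1.1 with mm10. How strand and read pairs were counted, and with which annotation release, was not given in the sources used here. The deposited table holds raw counts per gene and TPM. Genes on opposite strands could share counts if strand was not used.

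The deposited counts were fitted in 1 edgeR 4.0.16 quasi-likelihood model (R 4.3.3) on the means of 4 groups, with TMM scaling, filterByExpr and 8 residual degrees of freedom. 28932 genes were tested, with Benjamini-Hochberg adjustment over all of them, and every adjusted p in the text comes from this test unless another is named. CPM values are on the TMM scale, log2 differences are the fitted ones, and SE was taken as the size of the log2 difference over the root of F. TPM was used only to compare genes. Library depth was 22023800 to 47926607 counts. The code was tested on simulated data. Same-numbered libraries deviated together (r = 0.141 to 0.397, against −0.297 to 0.097 for different numbers; threshold 0.1), so the numbers pair the libraries, and the fit with the replicate number as a block is given where it changed a call. Counts of replicates differed by more than sampling noise (chi-square per degree of freedom 12.78 to 33.56). The alternatives were DESeq2 1.42.0, limma 3.58.1 voom, other scaling, no filter, fewer libraries and the block. Where a named result did not pass, the alternatives listed beside it are those under which it passed, and under the others tested it did not.

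Genes named are the members of 4 role lists, the called members with the smallest p in each comparison (up to 8 each way, and 4 for the interaction), the 10 members with the highest TPM per group, and up to 6 partner genes per comparison; Cyp4f14, Cyp4x1, Cyp3a16, Cyp3a44, Cyp2c29, Srd5a1 and Por, and some comparisons of other members, were chosen after their values were seen. The members and lists were chosen with earlier results of these data known. The values of 2 listed genes are not reported here, while the counts and sums over their lists include them.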

Additional observations from a re-analysis of the deposited data

Results flagged for a closer look

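For 3 P450 genes the difference between the genotypes was itself different in mTEChi and mTEClo by the interaction test in edgeR. For Cyp19a1 the log2 effect of cHyper in mTEChi minus that in mTEClo was −4.98, from 4.21 in mTEClo and −0.76 in mTEChi. The size of the first 2 values is uncertain, since WT mTEClo had 1 count. For Cyp2f2 it was 1.60, from −1.25 in mTEClo and 0.36 in mTEChi. For Cyp2j6 it was 0.70, with WT and cHyper mTEClo libraries overlapping and cHyper mTEChi libraries all above WT. The interaction calls of Cyp2f2 and Cyp2j6 ended when single libraries were left out, as given above.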

How the results depend on the processing

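Of 167 results on single genes, 101 were called. Of the called results, 86 kept their call and direction under every alternative in which they were tested. The alternatives were 8 other settings and leaving out each of the 12 libraries. A call was lost under at least 1 alternative for 15, 12 uncalled results passed under at least 1, and none reversed. Genes removed by the filter of an alternative were not tested in it, and the interaction was not fitted with only the groups compared. DESeq2 gave no adjusted p for 4 values. Called members in cHyper against WT in mTEClo numbered 12 of 85 tested, and 6 of the 34 tested with only the groups compared. In mTEChi they numbered 3, but 5 in DESeq2, 5 in limma-voom, 5 without the filter and 8 with only the groups compared. For the interaction they numbered 3, but 6 in DESeq2 and 5 without the filter. Leaving out 1 library gave 7 to 12 in mTEClo (7 without WT mTEClo replicate 3), 2 to 4 in mTEChi, 77 to 81 for mTEChi against mTEClo in WT, 76 to 80 in cHyper, and 1 to 6 for the interaction. The interaction count was 1 when either replicate 1 of WT mTEClo or replicate 2 of cHyper mTEClo was left out, and 6 without replicate 3 of cHyper mTEClo. With the replicate number as a block, which uses the pairing, the counts were 13 and 4 between genotypes in mTEClo and mTEChi, 77 and 78 between populations in WT and cHyper, and 4 for the interaction. The block changed the calls of Cyp1b1, Cyp26a1, Cyp2d22, Cyp2j6 and Cyp7b1 given above and of Cyp2c68 (mTEChi against mTEClo in WT, adjusted p = 0.0423 and 0.0535), and no other member's. The cause of these changes was not tested. Levels under 3 counts per group cannot be told from 0 at this depth.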
